A study of Mus musculus with 15 samples.

Results

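Untreated biliary cells were compared with untreated hepatocytes by ATAC-seq, an assay in which a transposase cuts and tags accessible chromatin. The comparison was chosen by its labels alone: it holds the 3 libraries of biliary cells and the 3 libraries of hepatocytes sorted from untreated mouse liver, 6 of the 15 libraries of the series. The series also has 3 libraries each of biliary cells, hepatocytes and reprogrammed hepatocytes from mice given DDC (diethoxycarbonyl-dihydrocollidine, a compound fed to mice to injure ducts). The labels name no growth in culture and no treatment after the cells were taken from liver. The labels do not state the strain, age, sex or genotype of the mice, the sort markers, or whether a library is 1 animal or a pool. No source says that libraries of a group came from separate animals, so the p-values measure the spread between libraries, which may be technical.

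Hepatocytes are the parenchymal cells of the liver. They make most plasma proteins, run the urea cycle, store and release glucose, oxidise drugs and synthesise bile acids, under a network of transcription factors that includes HNF4A, C/EBP and FOXA factors. Biliary cells, or cholangiocytes, line the ducts that drain bile. They are a simple epithelium with keratins, E-cadherin, a basement membrane, ion transport and a primary cilium, and they use Notch and Hippo-YAP signalling and factors such as SOX9. Both arise from the same fetal hepatoblast.

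The deposited table holds 93217 regions, of which 2 lie on the mitochondrial genome. The mitochondrial regions took 76.6 ± 11.7% of reads in hepatocytes and 18.6 ± 4.33% in biliary cells (mean ± SD, n = 3 each). They were left out, and each library was rescaled to 1e6 reads in the 93215 nuclear regions (nuclear RPM). Nuclear reads numbered 2439831 to 4389653 in the biliary libraries and 201705 to 605309 in the hepatocyte libraries. A single read was therefore worth 0.228 to 0.410 nuclear RPM in biliary cells and 1.65 to 4.96 in hepatocytes, so a low hepatocyte value rests on few reads. Regions whose mean over the 6 libraries gave at least 5 reads at the depth of the shallowest hepatocyte library (24.8 nuclear RPM) were tested: 10534 regions, 11.3% of all. A gene's value is the sum over the regions that touch it or lie within 50 kb as the nearest gene. It measures accessibility and not expression, and it grows with the length of a locus, so levels are compared between cell types within a gene only. Each difference is a log2 difference of biliary minus hepatocyte on the log2(nuclear RPM + 5) scale, which understates the change of low genes, with its SE and a Benjamini-Hochberg adjusted p from limma over all tested features. A feature was called at an adjusted p under 0.05.

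The 5 marker genes separated the cell types as labelled. Spp1, which encodes osteopontin, a secreted glycoprotein of bile duct cells, had 306, 322 and 336 nuclear RPM in biliary libraries 1, 2 and 3 and 39.7, 28.1 and 17.03 in hepatocyte libraries 1, 2 and 3. The groups did not overlap (log2 3.35 ± 0.26, adjusted p = 0.000383). Krt19, a keratin of simple ductal epithelium, had 89.2, 135 and 153 in the biliary libraries and 69.4, 19.8 and 8.52 in the hepatocyte libraries, with hepatocyte library 1 closest to the biliary values (log2 2.13 ± 0.52, adjusted p = 0.0141). Without hepatocyte library 1 the Krt19 difference was 2.80, and without biliary library 3 or hepatocyte library 2 it no longer passed (adjusted p = 0.0561 and 0.0536). Epcam, an adhesion molecule of epithelia, had 113, 122 and 144 in the biliary libraries and 39.7, 26.4 and 46.8 in the hepatocyte libraries (log2 1.65 ± 0.25, adjusted p = 0.00187). Alb, the gene of serum albumin, had 159.8, 71.3 and 88.2 in the biliary libraries and 768, 867 and 468 in the hepatocyte libraries (log2 −2.70 ± 0.30, adjusted p = 0.000585). Hnf4a, which encodes a nuclear receptor that maintains hepatocyte identity, had 142, 66.4 and 41.2 in the biliary libraries and 258, 477 and 434 in the hepatocyte libraries (log2 −2.28 ± 0.38, adjusted p = 0.00258). The biliary values of both hepatocyte markers were highest in library 1. Neither Alb nor Hnf4a passed when the mitochondrial reads were kept in the total, as deposited (−0.82 and −0.43, adjusted p = 0.0601 and 0.308).

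**Figure D1:**
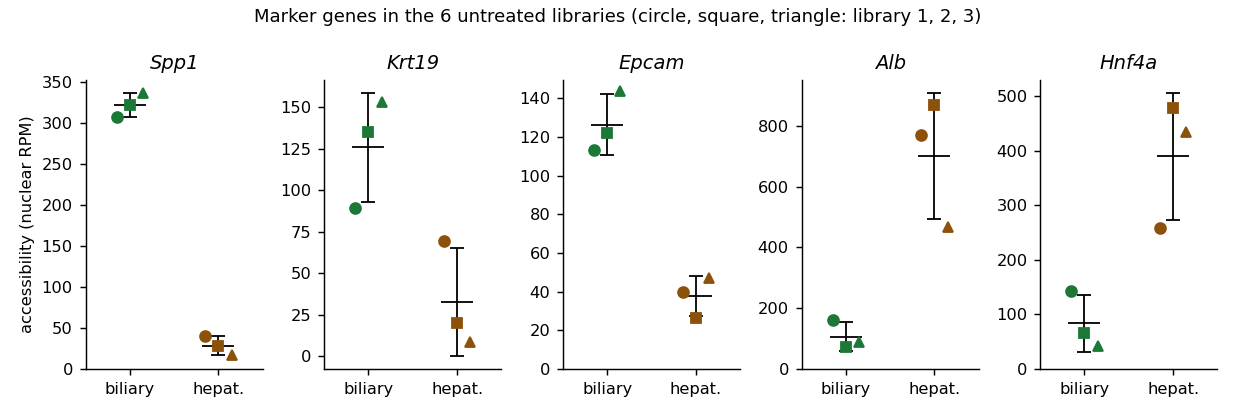
Accessibility of the 5 marker genes in nuclear RPM (reads per 1e6 nuclear reads) for each untreated library; the bar is the mean and the whiskers are 1 SD (n = 3). Spp1, Krt19 and Epcam lie higher in all 3 biliary libraries and Alb and Hnf4a lie higher in all 3 hepatocyte libraries, with biliary library 1 (circle) the highest biliary value for both hepatocyte genes.

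The bases before the start sites of marker genes are shown because these start sites lay in regions that differed between the cell types, apart from the upstream Hnf4a start, which is shown for contrast. Each line gives the 250 bases before an annotated start (RefSeq, GRCm38.p6, which is mm10), 5′ to 3′ on the gene's strand. Capitals mark matches, on either strand, to 8 short motifs: CAAAGTCCA (HNF4), TGTTTAC (FOXA), TTGCNCAA (C/EBP), TGANTCA (AP-1), GGAATG (TEAD), AACCNGTT (GRHL), GGGCGG (SP and KLF) and CCGGAAG (ETS). A match is a string of letters and not a measured site.
Alb (chr5:90460620-90460869, plus strand): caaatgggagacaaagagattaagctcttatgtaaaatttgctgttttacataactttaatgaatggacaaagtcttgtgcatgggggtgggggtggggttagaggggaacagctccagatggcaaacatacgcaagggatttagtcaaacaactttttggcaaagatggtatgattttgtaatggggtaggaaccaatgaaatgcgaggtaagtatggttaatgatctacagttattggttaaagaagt
Hnf4a, downstream start (chr2:163546905-163547154, plus strand): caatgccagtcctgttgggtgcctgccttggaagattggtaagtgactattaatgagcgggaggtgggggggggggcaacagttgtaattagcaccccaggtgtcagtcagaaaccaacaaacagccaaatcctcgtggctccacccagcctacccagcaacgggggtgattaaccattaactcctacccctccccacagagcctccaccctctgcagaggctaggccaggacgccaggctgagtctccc
Hnf4a, upstream start (chr2:163506607-163506856, plus strand): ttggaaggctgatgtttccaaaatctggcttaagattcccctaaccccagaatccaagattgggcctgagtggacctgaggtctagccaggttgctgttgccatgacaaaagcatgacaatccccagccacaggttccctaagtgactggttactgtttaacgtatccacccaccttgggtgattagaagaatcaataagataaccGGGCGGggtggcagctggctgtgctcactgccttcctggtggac
Spp1 (chr5:104434861-104435110, plus strand): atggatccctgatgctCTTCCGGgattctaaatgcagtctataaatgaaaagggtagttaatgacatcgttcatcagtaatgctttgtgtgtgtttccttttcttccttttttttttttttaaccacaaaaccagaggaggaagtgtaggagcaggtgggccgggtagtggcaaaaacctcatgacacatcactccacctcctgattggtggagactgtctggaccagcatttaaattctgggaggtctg
Epcam (chr17:87635729-87635978, plus strand): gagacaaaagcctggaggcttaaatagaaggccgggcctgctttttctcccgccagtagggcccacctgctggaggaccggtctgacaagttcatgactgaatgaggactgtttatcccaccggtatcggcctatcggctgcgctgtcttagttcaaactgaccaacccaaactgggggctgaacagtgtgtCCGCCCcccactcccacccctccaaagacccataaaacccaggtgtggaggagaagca
The Alb window and the window of the downstream Hnf4a start hold no match to these 8 motifs. The upstream Hnf4a window holds an SP and KLF match, 44 bases before the start, and the Spp1 window holds an ETS match, 234 bases before the start. The Epcam window holds 1 SP and KLF match. Krt19 has no entry in the promoter table.

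Of 9959 genes tested, 1477 were higher in biliary cells (14.8%) and 1218 were lower (12.2%). Of 10534 regions tested, 1735 were higher (16.5%) and 1323 lower (12.6%). Among the called genes, 944 were at least 2-fold higher and 778 at least 2-fold lower on the fitted scale. The groups did not overlap for 1474 of the 1477 higher and 1199 of the 1218 lower genes. Over all 9959 tested genes they did not overlap for 2785 in the higher and 1827 in the lower direction. Calls and overlap use the same values, so the lack of overlap is no separate support. The median difference was 0.17 over all genes and 0.26 over all regions, and each list below is read against the gene median. The split of calls between directions rests on the filter and the scaling. With regions kept only where every hepatocyte library had at least 5 reads, which leaves 8397 regions and selects on the hepatocyte value itself, 1021 regions were higher and 2611 lower (genes: 1070 and 1486). TMM scaling, which divides by factors from the bulk of the features, gave 2828 regions higher and 1053 lower (genes: 1256 and 1351). With edgeR and TMM 1522 regions were higher and 1824 lower (genes: 1401 and 1795). TMM scaling moved the median over all regions from 0.26 to 0.51 and that over all genes from 0.17 to 0.10. With edgeR and TMM these medians were 0.06 and 0.01, so the 2 uses of TMM moved the region median in opposite directions. Under TMM scaling and edgeR with TMM no called gene and no called region changed direction. The hepatocyte read filter leaves each fitted difference unchanged, so no sign could turn there. With it 2029 of the 3058 called regions and 2159 of the 2695 called genes were still called. Called features outside that filter were not tested there. On the deposited scale, with mitochondrial reads in the total, 8950 regions were higher and 234 lower (genes: 8922 and 88), with a median of 1.70 over regions.

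**Figure D2:**
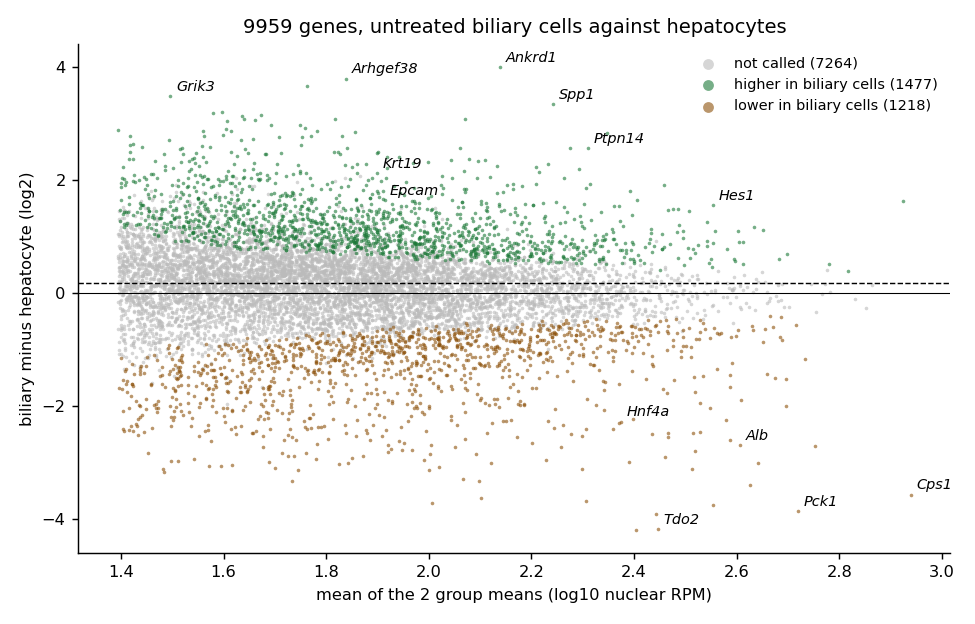
Difference in accessibility (log2, biliary minus hepatocyte) against the mean level (log10 of the mean of both group means, nuclear RPM) for 9959 genes; green and brown points passed an adjusted p under 0.05 (limma, n = 3 per group), and the dashed line is the median of all genes, 0.17. The hepatocyte side reaches −4.19 and holds genes of high level such as Cps1 and Pck1, and the biliary side reaches 4.01 at Ankrd1.

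The 10 genes with the largest gain in biliary cells were Ankrd1, Arhgef38, C2cd4b, Grik3, Spp1, Scara3, Foxl1, Frem2, Rasef and Sphk1, with log2 differences from 4.01 to 3.09. Ankrd1, a nuclear ankyrin-repeat protein and a standard target of YAP, had 198, 264 and 315 in the biliary libraries and 0, 16.5 and 34.1 in the hepatocyte libraries (log2 4.01 ± 0.60, adjusted p = 0.00163). Its 3 biliary values all exceeded the highest hepatocyte value more than 5-fold. The difference was 3.16 without hepatocyte library 1, which had no read, and 4.64 without hepatocyte library 3. Arhgef38, which encodes a guanine nucleotide exchange factor, had 113, 138 and 144 in the biliary libraries and 0, 14.9 and 4.26 in the hepatocyte libraries (log2 3.80 ± 0.46, adjusted p = 0.000688). C2cd4b had 89.9, 125 and 117 in the biliary libraries and 4.96, 9.91 and 0 in the hepatocyte libraries (log2 3.66 ± 0.43, adjusted p = 0.000613). Foxl1, a forkhead factor known from liver progenitor cells, had 66.5, 64.8 and 79.7 in the biliary libraries and 0, 0 and 17.03 in the hepatocyte libraries, so that 2 of the 3 hepatocyte libraries had no read (log2 3.19 ± 0.59, adjusted p = 0.00435). Frem2, a protein of epithelial basement membranes, had 83.1, 91.4 and 89.98 in the biliary libraries and 9.92, 3.30 and 4.26 in the hepatocyte libraries (log2 3.15 ± 0.36, adjusted p = 0.000585). Sphk1, a sphingosine kinase, had 94.8, 83.2 and 65.4 in the biliary libraries and 0, 9.91 and 8.52 in the hepatocyte libraries (log2 3.09 ± 0.47, adjusted p = 0.00177). Grik3, a kainate receptor subunit, Scara3, a scavenger receptor, and Rasef, a Rab-type GTPase with EF hands, differed by 3.49, 3.21 and 3.15. None of the 10 had 5 reads in every hepatocyte library, so their rank is a description of genes admitted largely by their biliary values. Of the 1477 genes that rose, 946 (64%) had that many, against 1213 of the 1218 that fell (99.6%). The 9 genes other than Spp1 rested on 2 to 18 hepatocyte reads in all, and for Grik3, with 2 reads, the pooled ratio of 31.8 had a counting interval of 8.77 to 263 (exact, 95%). Without hepatocyte library 3 Foxl1 was 3.91 and Rasef 4.02. Grik3 did not pass with a pseudocount of 1 or without biliary library 2 (adjusted p = 0.0571 and 0.0592), nor did Rasef without biliary library 3 (adjusted p = 0.0627).

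The genes with the largest loss in biliary cells included Serpina3k, Tdo2, Igfbp1, Pck1, Slc25a47, Hpx, Cyp2e1, Cps1 and Tat, each a gene of hepatocyte secretion or metabolism. Serpina3k, a secreted protease inhibitor, had 27.2, 7.79 and 16.2 in the biliary libraries and 114, 535 and 822 in the hepatocyte libraries (log2 −4.19 ± 0.61, adjusted p = 0.00139). Hepatocyte library 1 was the lowest of its group there, and without it the difference was −5.02. Serpina3k lies in a cluster of near-identical paralogs whose reads may be split. Tdo2, the first enzyme of tryptophan breakdown, had 76.7, 9.84 and 13.2 in the biliary libraries and 431, 750.0 and 396 in the hepatocyte libraries (log2 −4.18 ± 0.54, adjusted p = 0.000905). Igfbp1, a hepatic binding protein of insulin-like growth factors, had 82.7, 15.98 and 15.5 in the biliary libraries and 451, 704 and 392 in the hepatocyte libraries (log2 −3.91 ± 0.49, adjusted p = 0.000773). Pck1, the enzyme that commits to gluconeogenesis, had 159, 30.3 and 39.4 in the biliary libraries and 1205, 1168 and 549 in the hepatocyte libraries (log2 −3.86 ± 0.50, adjusted p = 0.000932). Cps1, which starts the urea cycle, had 311, 94.7 and 68.1 in the biliary libraries and 1363, 1919.7 and 1460.4 in the hepatocyte libraries (log2 −3.57 ± 0.42, adjusted p = 0.000618). Hpx, the plasma haem carrier, had 54.8, 14.8 and 14.1 in the biliary libraries and 521, 248 and 362 in the hepatocyte libraries (log2 −3.69 ± 0.43, adjusted p = 0.000585). In these 6 genes biliary library 1 was the highest of its group and lay below every hepatocyte library. Slc25a47 (a mitochondrial carrier), Cyp2e1 (the ethanol-oxidising cytochrome P450) and Tat (tyrosine aminotransferase) differed by −3.76, −3.63 and −3.41. Without biliary library 1 the differences were larger by over 1.5-fold for Tdo2 (−4.95), Igfbp1 (−4.60), Pck1 (−4.54), Slc25a47 (−4.50), Cyp2e1 (−4.29), Cps1 (−4.20) and Tat (−4.14). Tat was −4.01 without hepatocyte library 3 and did not pass with edgeR (adjusted p = 0.0637 with TMM and 0.0658 without).

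Keratins and surface molecules of ducts were mostly higher in biliary cells. Of 14 tested members, 11 rose and 0 fell, against 14.8% and 12.2% of all genes, and the median was 1.48. Krt23, a keratin of ductular cells, had 150.0, 216 and 236 in the biliary libraries and 39.7, 19.8 and 29.8 in the hepatocyte libraries (log2 2.58 ± 0.28, adjusted p = 0.000568). The keratin pair of simple epithelia, Krt8 and Krt18, which hepatocytes also express, rose by 1.52 and 1.85, and Krt7, a ductal keratin, by 1.07. Cdh1, which encodes E-cadherin, rose by 1.55. The glycoprotein gene Cd24a rose by 1.29, the membrane protease gene St14 by 1.20 and the tetraspanin gene Tspan8 by 0.54. Prom1, the gene of the ductal progenitor antigen CD133, had a value of −0.35 (adjusted p = 0.186) and did not pass, nor did Anxa3 at 0.05. Without biliary library 1, 2 or 3 the count was 7, 7 and 6, and without library 1 the median was 1.61.

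Transcription factors of biliary or ductal epithelium followed: 12 of 18 rose, 0 fell, and the median was 0.91. Grhl2, a grainyhead factor that maintains epithelial junction genes, had 139, 132 and 139.7 in the biliary libraries and 39.7, 11.6 and 34.1 in the hepatocyte libraries (log2 2.21 ± 0.35, adjusted p = 0.00218). Its values lay close together in biliary cells. Foxj1, a regulator of ciliated cells, had 104, 129 and 101 in the biliary libraries and 19.8, 36.3 and 42.6 in the hepatocyte libraries (log2 1.66 ± 0.29, adjusted p = 0.00319), and Ehf, an epithelial ETS factor, had 153, 158 and 127 in the biliary libraries and 39.7, 37.997 and 59.6 in the hepatocyte libraries (log2 1.59 ± 0.23, adjusted p = 0.00150). Sox9, the usual marker factor of ducts, rose by 0.87. The FGF-responsive ETS genes Etv5 and Etv4 rose by 1.58 and 1.39. Tead1, a DNA-binding partner of YAP, rose by 0.95, and Tead4 had 0.83 without passing (adjusted p = 0.0683). The count was 7, 6 and 6 without biliary library 1, 2 or 3.

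Hippo-YAP genes moved in both directions, mostly higher. Of 17 tested, 9 rose and 2 fell, with a median of 1.07. Ptpn14, a phosphatase that holds YAP in check and is itself a YAP target, had 330.2, 372 and 348 in the biliary libraries and 79.3, 29.7 and 68.1 in the hepatocyte libraries (log2 2.57 ± 0.30, adjusted p = 0.000585). Amotl1, an angiomotin that binds YAP at junctions, had 111, 139 and 133 in the biliary libraries and 24.8, 23.1 and 34.1 in the hepatocyte libraries (log2 2.05 ± 0.24, adjusted p = 0.000618). The secreted YAP target Ccn1 rose by 1.12, while Ccn2, another such target, had 1.07 and did not pass (adjusted p = 0.0726). Dlc1, a GTPase-activating protein, and Asap1, an Arf GTPase-activating protein, fell, with differences of −0.64 and −0.58. Both changes were under 2-fold. Without biliary library 2 neither passed (Dlc1 −0.61, adjusted p = 0.058), and Asap1 fell short of the threshold in 8 of 20 alternatives. The bases before the Ankrd1 start are shown because TEAD factors, which carry YAP to DNA, bind the letters GGAATG.
Ankrd1 (chr19:36119845-36120094, minus strand): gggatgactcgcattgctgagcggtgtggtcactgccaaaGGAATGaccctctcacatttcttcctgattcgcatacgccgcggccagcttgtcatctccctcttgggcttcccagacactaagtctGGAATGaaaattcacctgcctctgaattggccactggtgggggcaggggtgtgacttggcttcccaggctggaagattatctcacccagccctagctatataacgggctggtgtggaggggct
The Ankrd1 window holds 2 TEAD matches, 210 and 123 bases before the start, and no other match. A TEAD match was found in 13.6% of all 21263 promoter windows of 300 bases, in 12.8% of those in regions that were higher and in 13% of those in regions that were lower and in 10.6% of those in regions not called.

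Of 16 Notch genes tested, 5 rose and 0 fell, with a median of 0.34. The 5 were targets and modulators. Hes1, the repressor induced by Notch in ducts, had 489, 563 and 561 in the biliary libraries and 188, 169 and 179 in the hepatocyte libraries (log2 1.56 ± 0.14, adjusted p = 0.000383). Heyl, a related target, had 41.9, 51.2 and 38.3 in the biliary libraries and 9.92, 8.26 and 17.03 in the hepatocyte libraries (log2 1.57 ± 0.38, adjusted p = 0.0141), and Lfng, the Fringe enzyme that modifies Notch receptors, had 59.7, 50.003 and 43.1 in the biliary libraries and 19.8, 11.6 and 17.03 in the hepatocyte libraries (log2 1.41 ± 0.33, adjusted p = 0.0113). Nrarp, a feedback inhibitor, rose by 1.05 and Maml2, a coactivator, by 0.88. The receptors and ligands did not pass: Notch2 had 0.39, Notch1 −0.12 and Jag1 −0.12 (adjusted p = 0.100, 0.737 and 0.590). Heyl and Lfng did not pass when any 1 biliary library was left out (adjusted p = 0.0586 to 0.145), and the list had 2, 2 and 2 calls without biliary library 1, 2 or 3.

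Genes of junctions and the basement membrane gave 9 higher and 0 lower of 18, with a median of 0.68. Lama5, a laminin chain of epithelial basement membranes, had 169.6, 168 and 164 in the biliary libraries and 59.5, 57.8 and 72.4 in the hepatocyte libraries (log2 1.34 ± 0.19, adjusted p = 0.00124). Itga6, the laminin receptor subunit that pairs with ITGB4, had 124, 131 and 128 in the biliary libraries and 49.6, 36.3 and 68.1 in the hepatocyte libraries (log2 1.27 ± 0.25, adjusted p = 0.00523), and Itgb4 rose by 1.24. Without biliary library 1, 2 or 3 the list had 3, 4 and 4 calls. When libraries were thinned the list had 5 calls, and Itga6 did not pass with start-site regions alone (1.14, adjusted p = 0.104). Ductal transporters and cilium genes were mixed: 5 of 17 rose, 1 fell, and the median was 0.31. Ano1, a calcium-activated chloride channel, had 110.3, 74.2 and 67.7 in the biliary libraries and 29.7, 18.2 and 17.03 in the hepatocyte libraries (log2 1.74 ± 0.31, adjusted p = 0.00345), and Kcnn4, a potassium channel, had 88.4, 81.6 and 91.1 in the biliary libraries and 39.7, 31.4 and 42.6 in the hepatocyte libraries (log2 1.11 ± 0.24, adjusted p = 0.00761). Itpr3, the apical calcium release channel of cholangiocytes, had 46.9, 52.1 and 43.3 in the biliary libraries and 0, 6.61 and 25.5 in the hepatocyte libraries (log2 2.11 ± 0.61, adjusted p = 0.0277) and did not pass when any 1 biliary library was left out (adjusted p = 0.112 to 0.142). Kcnn4 did not pass when libraries were thinned to equal depth (0.57, adjusted p = 0.385) or without biliary library 3 (1.08, adjusted p = 0.0594). Itpr3 was 1.47 without hepatocyte library 1 and 2.78 without library 3. Cftr, the chloride channel that drives ductal secretion, had 0.57 and Sctr, the secretin receptor, −0.20, neither of which passed (adjusted p = 0.214 and 0.583). Pkhd1, the polycystic disease gene of the cilium, fell, with 212, 226 and 196 in the biliary libraries and 481, 324 and 353 in the hepatocyte libraries (log2 −0.84 ± 0.17, adjusted p = 0.00669). The list had 2, 2 and 1 genes that rose without biliary library 1, 2 or 3. Regions within 1 kb of the Pkhd1 start gave 0.06 in place of −0.84.

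**Figure D3:**
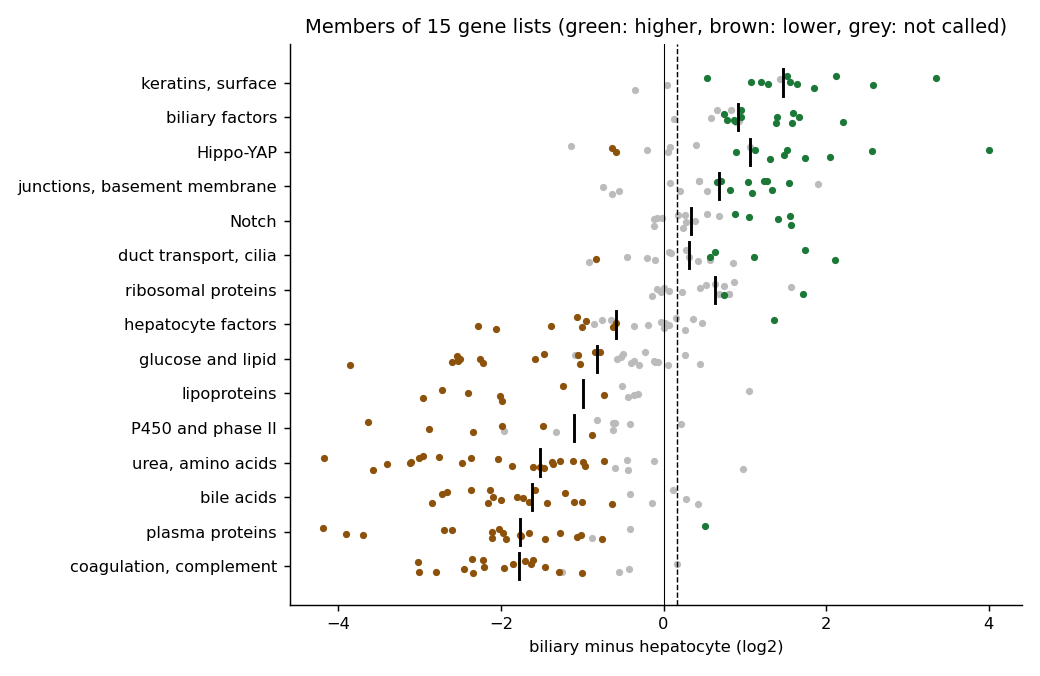
Log2 difference (biliary minus hepatocyte) of each tested member of 15 gene lists; green and brown points passed an adjusted p under 0.05 (limma), the short bar is the list's median and the dashed line the median of all 9959 genes, 0.17. The keratin, biliary factor, Hippo and junction lists centre between 0.68 and 1.48, and the coagulation, plasma protein and bile acid lists centre between −1.78 and −1.62.

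The secretory genes of hepatocytes were lower in biliary cells almost throughout. Of 21 plasma protein genes, 18 fell and 1 rose (median −1.77), and of 20 coagulation and complement genes, 16 fell and 0 rose (median −1.78). Fga, the fibrinogen alpha chain, had 46.1, 20.5 and 15.5 in the biliary libraries and 228, 219.7 and 264 in the hepatocyte libraries (log2 −3.01 ± 0.32, adjusted p = 0.000532), and Fgg, the gamma chain, had 105, 64.8 and 65.8 in the biliary libraries and 382, 677 and 689.8 in the hepatocyte libraries (log2 −2.80 ± 0.26, adjusted p = 0.000383). F10, coagulation factor X, had 44.6, 3.28 and 2.96 in the biliary libraries and 69.4, 122 and 175 in the hepatocyte libraries, with biliary library 1 more than 10 times as high as libraries 2 and 3 (log2 −3.01 ± 0.64, adjusted p = 0.00791). F10 was −3.88 without that library and did not pass with edgeR (adjusted p = 0.146 with TMM and 0.151 without). The 1 gene of the plasma protein list that rose was Cp, ceruloplasmin, the copper-carrying ferroxidase, with 613, 666 and 849.5 in the biliary libraries and 431, 557 and 494 in the hepatocyte libraries (log2 0.51 ± 0.15, adjusted p = 0.0296). The Cp call was lost under TMM scaling (0.44, adjusted p = 0.0557) and in 7 other alternatives. The Fga window is shown as an example with a C/EBP match, chosen for that match.
Fga (chr3:83025903-83026152, plus strand): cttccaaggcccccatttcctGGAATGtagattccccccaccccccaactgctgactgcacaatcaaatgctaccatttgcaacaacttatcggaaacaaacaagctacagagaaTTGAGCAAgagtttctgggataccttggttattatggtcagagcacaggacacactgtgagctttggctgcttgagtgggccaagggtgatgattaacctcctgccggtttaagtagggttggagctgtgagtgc
Its C/EBP match begins 135 bases before the start, and a TEAD match lies at 229 bases. The same letters occur at genes of the other direction: a C/EBP match lies 94 bases before the start of Krt23, which rose, and a TEAD match 12 bases before that of Tdo2, which fell.

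Lipoprotein genes gave 7 lower and 0 higher of 12 (median −0.99). Apoa1, the main protein of high-density lipoprotein, had 72.5, 24.6 and 16.9 in the biliary libraries and 174, 411 and 315 in the hepatocyte libraries (log2 −2.96 ± 0.45, adjusted p = 0.00171). Apoa5, which sits beside it on the chromosome and regulates triglycerides, had 23.8, 2.05 and 4.78 in the biliary libraries and 69.4, 134 and 51.1 in the hepatocyte libraries (log2 −2.73 ± 0.55, adjusted p = 0.00599), and −3.33 without biliary library 1. Mttp, which loads lipid onto apolipoprotein B, had 20.4, 9.02 and 5.47 in the biliary libraries and 134, 127 and 25.5 in the hepatocyte libraries (log2 −2.41 ± 0.58, adjusted p = 0.0132). The Mttp difference was −3.13 without hepatocyte library 3 and did not pass without hepatocyte library 2 (−2.07, adjusted p = 0.0623). Apob itself and Apoe, which many cell types express, fell, with differences of −2.01 and −0.73, and Apoc2, in the same cluster as Apoe, had 1.05 and did not pass (adjusted p = 0.0622).

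Amino acid and urea cycle genes gave 22 lower and 0 higher of 27 (median −1.52). Beside Tdo2, Cps1 and Tat, the losses included Arg1, the last enzyme of the urea cycle (−3.11), Bhmt, which remethylates homocysteine (−3.11), and Mat1a, the hepatic methionine adenosyltransferase (−3.01). Glul, glutamine synthetase of pericentral hepatocytes, fell (−0.74), and Fah, the last enzyme of tyrosine breakdown, had −0.12 and did not pass. Bile acid genes gave 17 lower and 0 higher of 22 (median −1.62). Cyp27a1, which starts the acidic route of synthesis, had 54.4, 9.84 and 12.5 in the biliary libraries and 154, 216 and 158 in the hepatocyte libraries (log2 −2.84 ± 0.46, adjusted p = 0.00227), and −3.47 without biliary library 1. Abcc2, the canalicular exporter of conjugates, had 93.3, 27.9 and 24.4 in the biliary libraries and 263, 461 and 217 in the hepatocyte libraries (log2 −2.73 ± 0.43, adjusted p = 0.00217), and Abcg8, a subunit of the canalicular sterol exporter, had 24.9, 8.20 and 7.52 in the biliary libraries and 69.4, 142 and 111 in the hepatocyte libraries (log2 −2.67 ± 0.40, adjusted p = 0.00173). Cyp7a1, the rate-limiting enzyme of the classic route, and Abcb11, the bile salt export pump, fell, with differences of −2.14 and −2.36. The ileal-type transporter Slc10a2, which cholangiocytes use to take bile acids up, had −0.45 and did not pass (adjusted p = 0.126).

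Drug metabolism gave 6 lower and 0 higher of 14 (median −1.10). Cyp2d9 had 22.3, 3.28 and 3.42 in the biliary libraries and 69.4, 165 and 55.4 in the hepatocyte libraries (log2 −2.88 ± 0.54, adjusted p = 0.00461) and Cyp2d10 had 38.2, 14.3 and 11.2 in the biliary libraries and 119, 127 and 102 in the hepatocyte libraries (log2 −2.34 ± 0.36, adjusted p = 0.00196). Both belong to a cluster of similar P450 genes, so reads may be split between them. Of the 31 genes listed there, 17 were not tested. The count depends on the setting: edgeR gave 13 lower with TMM and 10 without, all 15 libraries in the fit gave 12, no filter beyond 1 read gave 10 of 24, and start-site regions alone gave 0 of 7 (median −0.36). Glucose and lipid genes were divided, with 14 lower, 0 higher and 14 not called (median −0.82). The gluconeogenic genes G6pc and Fbp1 fell, with differences of −2.50 and −2.22. The lipogenic genes Fasn, Acaca and Scd1, which are not restricted to hepatocytes, had −0.30, 0.26 and −0.12, and none passed. On the deposited scale the medians of the lipoprotein, drug, bile acid, amino acid and glucose and lipid lists turned positive, but each stayed below the median of all genes, which moved to 1.69 there.

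Hepatocyte transcription factors were split between genes that fell and genes that did not pass. Of 23 tested, 8 fell, 1 rose and 14 did not pass, and the median was −0.59. Beside Hnf4a, the largest losses were Nr1i2, the xenobiotic receptor PXR, with 107, 47.95 and 50.8 in the biliary libraries and 263, 319 and 268 in the hepatocyte libraries (log2 −2.06 ± 0.28, adjusted p = 0.00100), and Cebpb, with 138, 85.7 and 80.4 in the biliary libraries and 263, 344 and 204 in the hepatocyte libraries (log2 −1.38 ± 0.25, adjusted p = 0.00383). Cebpa and Foxa2 fell, with differences of −0.95 and −0.59. Without biliary library 1, 2 or 3 the number that fell was 6, 5 and 5. Start-site regions alone gave 3 lower and 1 higher of 19, and Nr1i2 then had −0.73 and did not pass (adjusted p = 0.147), nor did it as deposited (−0.22, adjusted p = 0.596). Among the lists above, start-site regions alone also gave fewer calls for bile acid genes (5 lower and 2 higher of 13), amino acid genes (12 lower of 23), coagulation and complement genes (10 lower of 14), plasma proteins (12 lower of 17) and glucose and lipid genes (8 lower and 1 higher of 20). Lower calls were fewer over all genes too: 317 lower and 977 higher of 7383, against 1218 and 1477 of 9959 in the main fit. Foxa1, Foxa3, Prox1 and Onecut1, other members of the list, had −0.19, 0.36, 0.26 and 0.07, and none passed (adjusted p = 0.215 to 0.831). Gata6, a factor of foregut endoderm, was the 1 member that rose, with 184, 203 and 183 in the biliary libraries and 79.3, 52.9 and 85.2 in the hepatocyte libraries (log2 1.36 ± 0.21, adjusted p = 0.00215).

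The regions of Hnf4a did not move together. Hnf4a has 2 annotated start sites 40.3 kb apart. At the upstream start (chr2:163506168-163508254) the levels were 22.7, 18.03 and 18.7 nuclear RPM in the biliary libraries and 29.7, 18.2 and 8.52 in the hepatocyte libraries. That region lay below the filter and was not tested. At the downstream start (chr2:163546546-163551955), where the hepatocyte form begins, the levels were 23.8, 8.20 and 5.01 against 39.7, 67.7 and 85.2 (log2 −2.09 ± 0.45, adjusted p = 0.00864). The region chr2:163537897-163542273, which ends 4.88 kb before the downstream start, fell by 2.68 ± 0.58 (adjusted p = 0.00864), and a region past the gene's 3′ end, chr2:163580175-163580941, by 2.93 ± 0.55 (adjusted p = 0.00502). The upstream start held 48.8%, 68.8% and 78.8% of the reads of both start regions in the biliary libraries and 42.9%, 21.2% and 9.09% in the hepatocyte libraries. The means were 65.5 ± 15.3% and 24.4 ± 17.1% (SD, n = 3 each). The groups did not overlap, and an exact two-sided permutation test gave p = 0.1, the smallest that 3 against 3 allows. Hepatocyte library 1 rests on 14 reads there (95% exact binomial interval 17.7 to 71.1%), which reaches the biliary values. This share was computed after the region values had been seen.

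The other marker loci had different shapes. Spp1 had 8 regions, and the 3 that were tested all rose. The region over most of the gene body, chr5:104436440-104444729, had 163, 141 and 176 nuclear RPM in biliary cells and 0, 0 and 8.52 in hepatocytes, with 2 hepatocyte reads in all. Its pooled ratio was 85.04 with an exact counting interval of 23.5 to 703. The region over the Spp1 start, chr5:104432845-104435761, was less different (1.79 ± 0.38, adjusted p = 0.00800). A region 34.7 kb before the gene, chr5:104399090-104400380, had 65.7, 82.4 and 81.3 against 0, 9.91 and 0. Both passed the filter through the biliary libraries. Alb had 1 tested region, which covers the whole gene and is 20564 bp wide (chr5:90460319-90480882), with 133, 47.95 and 63.6 in biliary cells and 724, 786 and 426 in hepatocytes (−2.98 ± 0.35, adjusted p = 0.00118). Krt19 and Epcam each had 1 tested region, at the start site (chr11:100136033-100146661, 2.10 ± 0.49; chr17:87635304-87639691, 1.90 ± 0.41). Below the filter, a region 9.25 kb from Krt19 (chr11:100155174-100156476) had 210 biliary reads and 0 hepatocyte reads. It was at least 7.70-fold higher in biliary cells against a floor of 3 reads over the hepatocyte group.

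**Figure D4:**
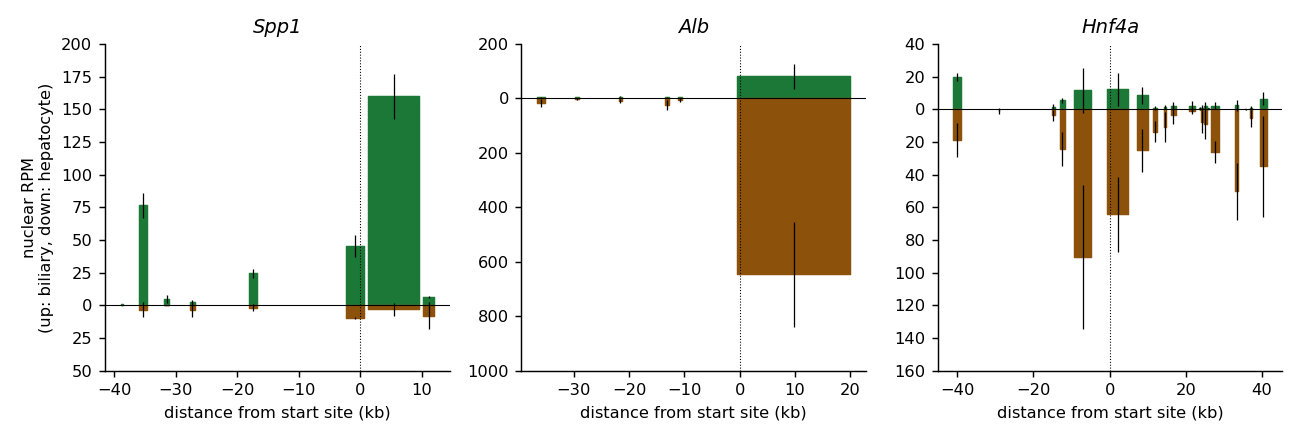
Mean nuclear RPM of every region tied to Spp1, Alb and Hnf4a by distance from a start site in kb (for Hnf4a the downstream start); bars span each region, biliary means point up, hepatocyte means point down, and lines are 1 SD (n = 3). Spp1 has biliary signal over the gene and about 34.7 kb before it, Alb has a single region over the gene body, and at Hnf4a the region at the upstream start, 40.3 kb away, overlaps between the cell types while the tested regions around the downstream start are higher in hepatocytes.

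The 5 regions with the largest gain were the Spp1 gene body, the Arhgef38 start and regions near Shank2, Ttll10 and Cd9. They held 0 or 2 hepatocyte reads each and passed the filter on the mean only through the biliary libraries, so their values are a description. Of the 1735 regions that rose, 758 (43.7%) had 5 reads in every hepatocyte library, against 1272 of the 1323 that fell (96.1%). The Arhgef38 start (chr3:133233806-133235655) had 86.1, 103 and 115 nuclear RPM in biliary cells and no read in any hepatocyte library, which makes it at least 36.1-fold higher against the same floor. Near Shank2, which encodes a synaptic and epithelial scaffold protein, chr7:143956138-143959235 had 127, 151 and 148 against 9.92, 0 and 0, a pooled ratio of 74.4 (20.6 to 615). A region in Cd9, a tetraspanin gene (chr6:125466284-125468984), had 84.6, 131 and 117 against 0, 3.30 and 0. In the fit of regions with 5 reads in every hepatocyte library, the largest gains lay at Tagln2, Spry2, Gramd1b, Fosb and Cldn23 (2.57 to 2.05), names chosen after their values were seen. The region at Tagln2, which encodes an actin-binding protein (chr1:172497722-172515891), had 298, 332 and 342 in biliary cells and 79.3, 46.3 and 34.1 in hepatocytes (adjusted p = 3.07e-05). The 5 with the largest loss lay at Serpina3k (−4.32), in Fgb (−4.13), at Igfbp1 (−4.06), in Tdo2 (−4.04) and at Pck1 (−3.96), and each was 6858 to 12785 bp wide. The Fgb region, in the fibrinogen beta chain gene (chr3:83038618-83047474), had 41.9, 5.74 and 20.05 against 268, 395 and 622. Over all tested regions the median widths were 2311 bp for regions that fell, 2499 bp for those that rose and 2244 bp for the rest.

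In the main fit the share of regions that fell varied with place, and the share that rose lay between 15.1% and 17.0% in every place. Of 7436 tested regions within 1 kb of a start site, 1246 rose (16.8%) and 391 fell (5.26%), with a median of 0.35. Of 1745 regions in gene bodies, 263 rose (15.1%) and 539 fell (30.9%), with a median of −0.26. Between genes, within 50 kb, 150 rose (17.0%) and 218 fell (24.7%) of 881, and beyond 50 kb 76 rose (16.1%) and 175 fell (37.1%) of 472, with a median of −0.50. Start sites held 70.6% of tested regions, 71.8% of those that rose and 29.6% of those that fell. The median within 50 kb turned from −0.10 to 0.14 under TMM scaling, and the gene-body median moved to −0.03. The share that rose was less even in other settings. Under TMM scaling 2169 of 7436 start-site regions and 356 of 1745 gene-body regions rose. With the hepatocyte read filter 886 of 5273 start-site regions rose and 565 fell, and in gene bodies 66 and 1159 of 1738. With no filter beyond 1 read the medians of the 3 other places were 0.07 to 0.11, below the 0.36 of start sites. With a filter at 20 expected reads they were −0.08, 0.39 and 0.27 over 72, 27 and 12 regions. In the reads themselves, start sites took 57.5, 60.8 and 62.6% of nuclear reads in biliary libraries 1, 2 and 3 and 49.3, 50.4 and 50.4% in the hepatocyte libraries. The groups did not overlap (exact two-sided permutation p = 0.1, the smallest possible). In DDC biliary cells and DDC hepatocytes the means were 53.4 ± 0.64% and 52.4 ± 0.67%. Between the 2 untreated groups, the higher share of reads at start sites in biliary cells went with fewer losses there. It also went with greater library depth and a lower mitochondrial share. DDC biliary libraries, with the mean of 53.4%, had 5151190 to 10395918 nuclear reads and 7.99 to 12.9% mitochondrial reads. The part of depth and mitochondrial share in these values was not tested.

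Windows at the start sites of regions that fell held fewer CpG than those of regions that rose. Of 21263 promoter windows of coding genes (300 bases, from 250 before to 50 after the start), 1393 lay in regions that rose, 332 in regions that fell and 6255 in tested regions that were not called. The median number of CpG was 24 in windows of regions that rose, 24 in the not called and 13.5 in those that fell, and 3.45%, 3.33% and 22.6% had 5 or fewer. The SP and KLF letters GGGCGG were in 75.6% of windows that rose, 72.3% of the not called and 51.5% of those that fell (46.2% of all). The C/EBP letters were in 1.65% of windows that rose, 2.19% of the not called and 4.52% of those that fell, and the HNF4 letters in 0.144%, 0.288% and 1.51%, the last being 5 windows. In the same order, AP-1 letters were in 4.31%, 3.84% and 6.02% (6.99% of all), FOXA letters in 1.94%, 2.49% and 3.31% (3.01% of all), GRHL letters in 1.87%, 1.53% and 1.51% (1.95% of all) and ETS letters in 15.2%, 20.2% and 9.34% (11.6% of all). Start-site regions were also split into 4 classes by the GC content of their windows. The median difference was 0.21 in the class of lowest GC (up to 57%) and 0.44 in that of highest (from 69.3%), and in DDC libraries the same classes gave −0.02 and 0.10. These are descriptions of letters, and no window's accessibility was tied to a factor.

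Biliary library 1 stood apart from biliary libraries 2 and 3. Of the 1218 genes lower in biliary cells, 81.6% had a higher value in library 1 than the mean of the other two biliary libraries, against 22.4% and 31.4% for libraries 2 and 3. Among genes that were not called the share was 48.5%. The summed level of 182 hepatocyte function genes (the 7 secretory and metabolic lists together) was 13830, 9656 and 9510 nuclear RPM in biliary libraries 1, 2 and 3, or 42.9%, 29.96% and 29.5% of the hepatocyte mean of 32230 ± 5610. Over the tested genes, which share each library's depth, Pearson's r of biliary library 1 with the 3 hepatocyte libraries was 0.592 to 0.667, and that of the other biliary libraries 0.507 to 0.556. The biliary keratin and surface list summed to 2012, 2312 and 2463 in the same order, and to 996.5, 730.2 and 762.1 in hepatocytes. Leaving library 1 out gave 675 genes higher and 889 lower, a fall of calls that also followed from leaving out library 2 (472 and 598) or 3 (489 and 627). Whether library 1 holds hepatocyte material was not tested.

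Markers of other liver cells gave few tested genes. The hepatocyte group pooled 1041881 nuclear reads against 9476206 in biliary cells, so a value of 0 in hepatocytes does not show absence. Endothelial genes (15 listed) summed to 204.6 to 244.5 nuclear RPM in biliary libraries and 228.1 to 293.8 in hepatocyte libraries, with Sox18 at 0 reads in hepatocytes. Of the 3 tested, Stab2, a scavenger receptor of sinusoidal endothelium, fell (log2 −1.22 ± 0.37, adjusted p = 0.0330), with 35.5, 21.3 and 24.8 in the biliary libraries and 39.7, 111 and 72.4 in the hepatocyte libraries. The Stab2 call was lost without any 1 of the biliary libraries and without hepatocyte library 2 or 3. Kupffer and leukocyte genes (9 of 16 with a region) summed to 130.1 to 152.3 and 128.9 to 200.1, with S100a8 among those at 0 in hepatocytes and no region at Clec4f, Vsig4, Adgre1 or Timd4. Of the 4 tested, Ptprc, the pan-leukocyte gene of CD45, fell, with 13.2, 8.20 and 5.92 in the biliary libraries and 69.4, 42.95 and 59.6 in the hepatocyte libraries (log2 −2.15 ± 0.38, adjusted p = 0.00358), and Csf1r, the macrophage growth factor receptor, rose, with 47.2, 43.4 and 43.1 in the biliary libraries and 19.8, 18.2 and 25.5 in the hepatocyte libraries (log2 0.93 ± 0.30, adjusted p = 0.0409). The Csf1r call was lost when any 1 biliary library was left out (adjusted p = 0.156 to 0.177), with the replicate block (0.0787) and under TMM (0.0534). Stellate and mesenchymal genes (14 of 15 with a region) summed to 308.3 to 335.8 and 213.2 to 234.2, with Cygb at 0 in hepatocytes and 0 of 3 tested called. The part of such cells in the results was not tested. In bulk sorted cells, fewer cells of a type and less signal per cell cannot be told apart. As a comparison of a shared gene class, 2 of 17 ribosomal protein genes rose, Rps2 by 1.72 and Rps19 by 0.75, and 0 fell. That share is below the 14.8% of all genes, and 0, 0 and 0 passed without biliary library 1, 2 or 3. Their median was 0.64, above the 0.17 of all genes and near the 0.68 of the junction list. With the hepatocyte read filter it was 0.03 over 8 ribosomal genes, against 0.66 over 15 junction genes. Of 12 neuronal genes, which neither cell type should use, 2 were tested, and Rbfox3 rose (1.20) and Snap25 fell (−0.97). Both calls were lost when any 1 biliary library was left out.

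The same contrast was made in 6 other libraries, biliary cells and hepatocytes of DDC-fed mice, which share no library with the untreated ones. There 33.4% of regions and 40.6% of genes were called. Of the 1218 genes lower in untreated biliary cells, 1157 (94.99%) had the same sign and 963 were called in that direction. Of the 1477 higher genes, 1331 (90.1%) had the same sign and 861 were called. For regions, 1119 of 1323 lower (84.6%) and 786 of 1735 higher (45.3%) were called in the same direction, and the difference between these shares was not tested. The median of the higher genes was 1.15 in untreated and 0.54 in DDC libraries, and that of the lower genes −1.19 and −0.94. These members were chosen by the untreated value, so a smaller median elsewhere follows in part from the choice. By list, DDC libraries gave 13 of 14 keratin and surface genes higher and 1 lower, 19 of 22 bile acid genes lower and 24 of 27 amino acid genes lower. Spp1 differed by 2.34 ± 0.20 (adjusted p = 1.40e-05) there, Krt19 by 3.49 ± 0.17 (adjusted p = 1.73e-06), Epcam by 2.71 ± 0.13 (adjusted p = 1.73e-06), Alb by −3.23 ± 0.29 (adjusted p = 1.80e-05) and Hnf4a by −2.16 ± 0.16 (adjusted p = 6.34e-06). The difference between the untreated and the DDC contrast, tested as an interaction over the 12 libraries, did not pass for any of these 5 (adjusted p = 0.0651 for Epcam to 0.913 for Hnf4a).

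**Figure D5:**
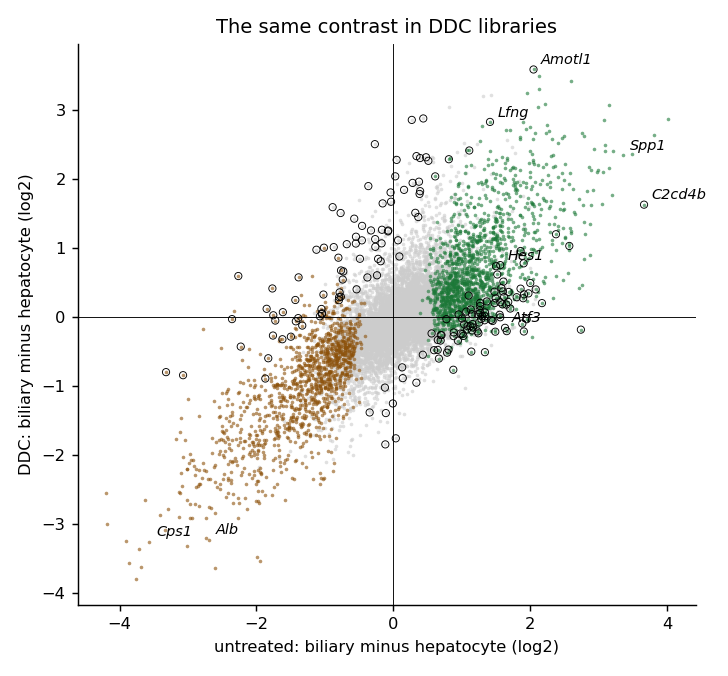
Log2 difference (biliary minus hepatocyte) of 9959 genes in untreated libraries (x axis) and in DDC libraries (y axis), 3 libraries per group in each; green and brown points were called in untreated libraries and circled points differed between the contrasts (adjusted p under 0.05, limma interaction). Most called genes keep their sign, and 181 circled genes do not have the same size in both, such as Atf3 near 0 in DDC libraries and Lfng and Amotl1 larger there.

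Of 9959 genes, 181 (1.82%) differed between the 2 contrasts, 97 with a higher and 84 with a lower value in the untreated one. Among the 66 genes named by rule, 5 differed. Hes1 was 1.56 untreated and 0.75 ± 0.11 (adjusted p = 0.000344) in DDC libraries (difference 0.81 ± 0.16, adjusted p = 0.0250). In DDC libraries its levels were 535, 549 and 585 in DDC biliary libraries and 378, 299 and 315 in DDC hepatocyte libraries. C2cd4b also differed more in untreated mice (difference 2.04 ± 0.49, adjusted p = 0.0491). Amotl1, Lfng and Kcnn4 differed less in untreated than in DDC libraries (difference −1.53 ± 0.31, adjusted p = 0.0250 for Amotl1, −1.41 ± 0.33 for Lfng and −1.30 ± 0.30 for Kcnn4, adjusted p = 0.0427 and 0.0449). The levels of Amotl1 were 193, 155 and 150.3 in DDC biliary libraries and 11.95, 6.22 and 10.1 in DDC hepatocyte libraries, against the untreated values given above. Of the other genes given above, the untreated minus DDC difference passed for Krt8 (0.91), Anxa3 (−2.22), Etv5 (1.17), Ccn1 (1.26), Fah (0.91) and Scd1 (1.73).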

How the data were processed

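The authors deposited 1 table of values per region and library, which they call TPM; the deposited values are RPM, since all values up to 100 reads (100%) are whole multiples of the value of 1 read, within 0.02 read, whatever the region's length. Bowtie2, SAMtools, MACS2 and bedtools with build mm10 are named in the submitters' processing notes, without versions or settings. Mitochondrial regions were dropped, and limma (3.58.1, R 4.3.3; trend, robust) was fitted to log2(nuclear RPM + 5) of the 6 libraries. Recovered reads served edgeR 4.0.16, thinning, ratios and intervals, which cover counting error only. Per the labels, library replicates carry numbers, and the main fit did not use these to pair libraries. Regions were tied to genes and starts with RefSeq tables (start sites for 79.9% of coding genes; either gene end otherwise). On simulated data with 200 changed genes, limma recovered 34.3% of genes changed 2-fold and 96% of those changed 4-fold (9692 genes tested). With 200 changed regions it recovered 19.1% and 86% (9999 regions tested). Named were the markers, the 10 largest called changes in each direction without group overlap (at least 30 reads), up to 3 per list and direction, and the 5 largest regions each way; other genes named were chosen after their values were seen. Members and lists were chosen with earlier results of these data known. Some genes and motifs tested are not reported here. The plan took the unit to be TPM; the test was kept. Counts of replicate libraries differed beyond sampling (chi-square over its degrees of freedom, 2.18 to 4.28). Python 3.11.15, pandas 2.3.3 and scipy 1.17.1 were used.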

Additional observations from a re-analysis of the deposited data

Results flagged for a closer look

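Reads on the 2 mitochondrial regions, which were left out of the nuclear RPM that the main comparisons use, made up a mean of 76.6% of reads in untreated hepatocytes, against 18.6% in biliary cells, with no overlap between the groups.

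The untreated and DDC contrasts differed for 5 of the genes named by rule, by an interaction term in a fit of 12 libraries. The untreated minus DDC difference was 2.04 for C2cd4b, 0.81 for Hes1, −1.30 for Kcnn4, −1.41 for Lfng and −1.53 for Amotl1 (log2).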

How the results depend on the processing

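Called regions, called genes and called start-site regions numbered 3058, 2695 and 1637. Within 1.5 times of these stayed a pseudocount of 1 or 20, the hepatocyte read filter, TMM, edgeR with or without TMM, and, except for start sites (1051), thinning. The numbers moved to 4967 regions and 1090 start-site regions with no filter beyond 1 read (genes 2982, within the range), to 354, 1080 and 308 with a filter at 20 expected reads (fewer features tested), to 9184, 9010 and 7048 as deposited, where the mitochondrial share sets the scale, and to 5065, 4487 and 3136 with all 15 libraries in the fit. Genes by start-site regions alone gave 1294 (7383 tested). Leaving out 1 library gave 1144 to 3586 regions, 1070 to 3110 genes and 423 to 2048 start-site regions. Without biliary library 1, 2 or 3 the regions were 1835, 1144 and 1173. With the replicate number as a block there were 3178 regions and 2802 genes. Over genes, deviations of same-numbered libraries from their group means correlated at −0.025, −0.067 and 0.089. Other pairs reached −0.145 and 0.158. With 3 libraries per group and few hepatocyte reads, these values cannot decide whether same-numbered libraries share an animal or a batch.

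Of 66 genes named by rule, 27 lost their call with the sign kept in at least 1 alternative. Cebpb as deposited and Pkhd1 with start-site regions alone also lost their calls, with a turned sign (adjusted p = 0.304 and 0.897). Signs turned as deposited for Pkhd1 (1.01), Dlc1 (1.21), Asap1 (1.24), Cebpb (0.43), Stab2 (0.36) and Snap25 (0.73), and with start-site regions alone for Pkhd1 (0.0578); the cause of the last was not tested. The fit with the replicate block lost 1 call, Csf1r (adjusted p = 0.0787). Depth limits hepatocyte values: 40.4 to 59.1% of regions had no read in a hepatocyte library.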

Other observations

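Atf3, a stress-induced AP-1 family factor, was singled out after its values were seen. It had 1150.5, 1175 and 1489 nuclear RPM in untreated biliary libraries and 421, 360.1 and 434 in untreated hepatocyte libraries (1.63 ± 0.13, adjusted p = 0.000383). In DDC libraries it had 496, 614 and 749 in biliary cells and 708, 683 and 662 in hepatocytes (−0.16 ± 0.13, adjusted p = 0.366), and the difference of the contrasts was 1.79 ± 0.20 (adjusted p = 0.00168). The groups did not overlap in untreated mice and did in DDC-fed mice. Gabrp, a GABA receptor subunit, and Itgb6, an integrin subunit of epithelia, also chosen after their values were seen, had the opposite pattern: −0.27 and 0.44 in untreated libraries, neither called, and 2.50 and 2.87 in DDC libraries (interaction adjusted p = 0.0208 and 0.0178).

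The median difference of tested regions varied by chromosome, from 0.01 on chromosome 3 and 0.02 on chromosome 13 to 0.48 on chromosome 11 and 0.74 on chromosome 19. On chromosome 19, 97 of 278 tested regions rose (34.9%) and 16 fell, and on chromosome 3, 62 of 585 rose (10.6%) and 107 fell. Ankrd1 lies on chromosome 19. No test of these chromosome differences was made.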
